A study of Drosophila melanogaster with 3 samples.

Results

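The genes of the cytoplasmic ribosomal proteins were examined as targets of CG1529-GFP in the Drosophila melanogaster embryo. They were taken from the Ensembl annotation of the dm6 genome (release 115) as the protein-coding genes whose names begin with RpL or RpS, plus sta, which encodes a small subunit protein. This gave 93 genes of the 13945 protein-coding genes of the 5 major chromosome arms and chromosome 4, with 54 for the large subunit and 39 for the small subunit. The data are peak lists of transcription factor ChIP-seq, an assay that maps where a protein sits on chromatin, from 3 libraries that form 1 group. The libraries are biological replicates 1, 2 and 3 of a stably transgenic line in which CG1529, predicted to encode a zinc finger protein, carries GFP at its C terminus. Whole embryos of both sexes, pooled and aged 0 to 14 h, gave the chromatin, which was sonicated to 200 to 800 bp. The antibody label names CG1529 while a free-text label calls the libraries an input control, and the file listings show each library's peaks called against 1 shared control alignment. That control and a mock precipitation were not analysed here, so signal at these promoters without CG1529-GFP was not tested.

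Ribosomal proteins assemble with ribosomal RNA into the large and small ribosomal subunits, which have to be made in matched amounts. In animals their genes are transcribed at high rates from a distinct class of promoter, in which transcription begins at a polypyrimidine TCT initiator in place of the TATA box and the standard initiator. Many of the introns carry snoRNA genes, whose products guide the modification of ribosomal RNA.

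The bases around the start sites of 6 members are shown because the peaks, where present, lay at or near them. Each runs from 80 bases before to 20 bases after an annotated transcription start site (TSS), on the strand of the gene, from the RefSeq copy of the dm6 sequence, and capitals mark the TCT initiator word. The first 4 genes had a peak in the authors' joint list, and the last 2 had none. RpL34b lies on the minus strand (3R:9401206-9401306), RpL14 on the plus strand (3L:8600926-8601026), RpL13A on the plus strand (3R:5624394-5624494) and RpS25 on the minus strand (3R:11216267-11216367). RpL40 lies on the plus strand (2L:4227619-4227719) and RpL37-1 on the minus strand (X:15139347-15139447).
RpL34b: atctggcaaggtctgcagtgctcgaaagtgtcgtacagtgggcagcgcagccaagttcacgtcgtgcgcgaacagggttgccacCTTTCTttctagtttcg
RpL14: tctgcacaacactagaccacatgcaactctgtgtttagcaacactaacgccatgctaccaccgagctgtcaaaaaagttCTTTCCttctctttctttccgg
RpL13A: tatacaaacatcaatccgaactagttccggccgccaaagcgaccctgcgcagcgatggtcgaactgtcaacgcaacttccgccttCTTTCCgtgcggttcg
RpS25: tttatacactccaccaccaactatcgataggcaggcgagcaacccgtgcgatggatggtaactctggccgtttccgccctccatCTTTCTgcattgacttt
RpL40: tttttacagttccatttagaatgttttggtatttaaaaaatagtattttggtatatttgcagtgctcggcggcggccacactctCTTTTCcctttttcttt
RpL37-1: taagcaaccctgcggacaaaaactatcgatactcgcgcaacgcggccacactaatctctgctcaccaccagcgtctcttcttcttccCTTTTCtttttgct

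All 6 promoters hold the initiator word within 10 bases of the TSS, whether or not a peak was listed there.

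CG1529-GFP was found at the promoters of most ribosomal protein genes. In the authors' optimal list, the joint list of peaks that ranked reproducibly across the libraries (3921 rows), 63 of the 93 members had a summit within 500 bp of a TSS, a share of 67.7% (exact 95% interval 57.3 to 77.1). Of all protein-coding genes, 13.3% had one. These 63 members are called bound here and the other 30 unbound, which refers to this list and window. The 63 bound members had 63 distinct peaks, so no peak was counted for a pair of members, while 4 members, RpL19, RpL28 and RpL34b among them, had 2 peaks each. The number of reads behind a peak is unknown from peak lists, and intervals cover counting error over genes.

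Each library was taken at the length of the optimal list, its 3921 strongest peaks by the authors' signal value (column 7 of the deposited lists). Replicate 1 had such a peak at 46 members (49.5%, exact interval 38.9 to 60.0), against 12.5% of all protein-coding genes. Replicate 2 had one at 64 members (68.8%), against 14.2%, and replicate 3 at 64 members (68.8%), against 13.7%. The mean was 62.4% ± 11.2 (SD, n = 3 libraries) for the members and 13.5% ± 0.919 for all protein-coding genes. In all 3 libraries at once, 41 members (44.1%, exact interval 33.8 to 54.8) had a strong peak, against 8.5% of all protein-coding genes. The count was 21 when each library's peak had to overlap the optimal peak by 50%, and 62 with the whole relaxed lists. The share of all protein-coding genes was not computed for these settings. Every one of the 3 libraries thus gave members a share above that of protein-coding genes, and replicate 1 gave the lowest.

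Peaks were also counted at other genes of protein synthesis. Genes of mitochondrial ribosomal proteins, which build the separate ribosome of that organelle, had an optimal peak at 12 of 73 (16.4%, exact interval 8.79 to 27.0). Translation factor genes had one at 14 of 54 (25.9%, exact interval 15 to 39.7), and ribosome biogenesis and RNA polymerase I genes at 7 of 42 (16.7%, exact interval 6.97 to 31.4). The means over libraries were 20.1% ± 2.09, 22.2% ± 3.21 and 19.8% ± 3.64 (SD, n = 3 each) for these lists in that order. The members' intervals did not overlap those of the 3 lists in the optimal list, in replicate 1, in replicate 2 or in replicate 3. No set test was run.

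**Figure D1:**
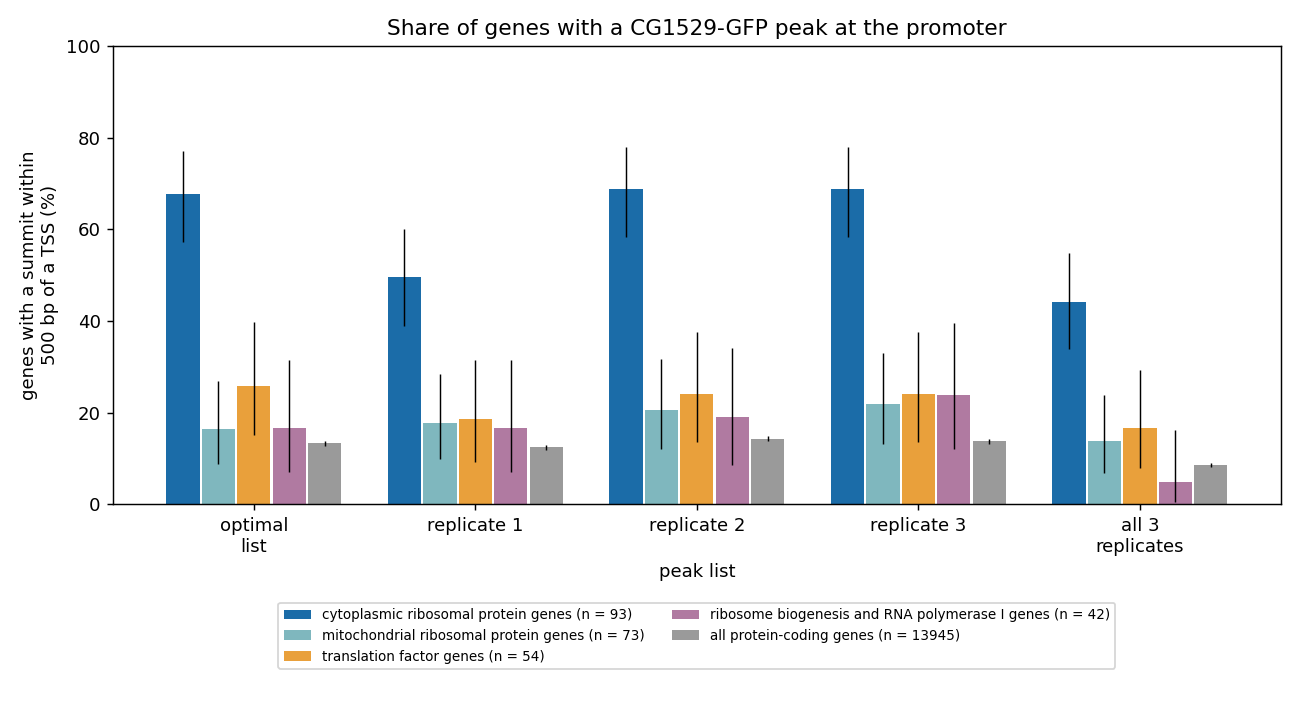
Share of genes with a CG1529-GFP summit within 500 bp of a TSS (y axis, percent) in the optimal list, in the 3921 strongest peaks of each library and in all 3 libraries at once (x axis), with exact 95% intervals as bars. The ribosomal protein genes stand between 44.1% and 68.8%, and all protein-coding genes between 8.5% and 14.2%.

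Support from the libraries was spread unevenly over the members. Of the 63 bound members, 41 had a strong peak in 3 libraries, 19 in 2 and 3 in 1, among them RpL12 and sta. Of the 30 unbound members, 23 had one in none of the libraries, 4 in 1 and 3 in 2. Over members listed in both libraries, the ranks of peaks correlated with a Spearman rho of 0.72 for replicates 1 and 2 (n = 53), 0.76 for replicates 1 and 3 (n = 53) and 0.79 for replicates 2 and 3 (n = 63). These points share genes and libraries, so the values are descriptions.

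**Figure D2:**
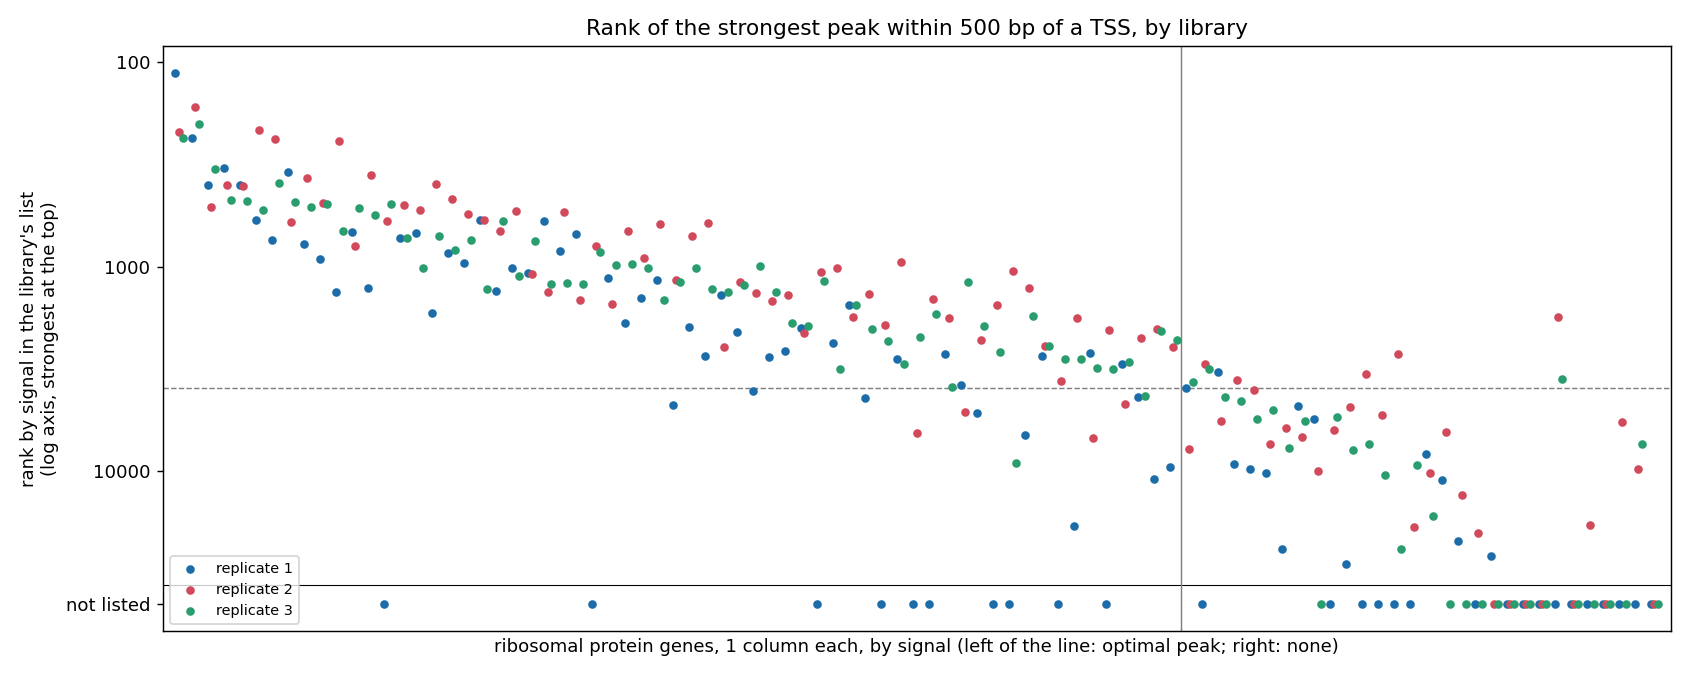
Rank by signal of the strongest peak within 500 bp of a TSS in each library's relaxed list of 30000 rows (y axis, log scale, strongest at the top) for each of the 93 members (x axis, in order of signal), the 63 bound ones at the left and the 30 unbound ones at the right. The dashed line is rank 3921, and points on the lowest line have no peak listed.

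Large subunit genes held most of the 15 strongest member peaks. RpL7 (2L:10200903-10201183) had an optimal signal of 866.3, with ranks of 235, 166 and 201 in replicates 1, 2 and 3, and its summit lay 36 bp downstream of a TSS. RpL34b (3R:9401191-9401452) had 631.1 (ranks 329, 396 and 469), with the summit 100 bp upstream. Both genes ranked high in all 3 libraries, RpL7 ahead of RpL34b in each. RpL14, a snoRNA host, had 614.2 (ranks 593, 213 and 526), RpL28 had 593.8 (343, 603 and 481) and RpL13A had 564.5 (772, 367 and 511). Next came RpL19 with 515.5, RpL30 with 505.8, RpL11 with 480.0 and RpL24 with 474.8. RpL11, known in mammals as a binding partner of MDM2, had no peak listed in replicate 1 and ranked 594 and 494 in replicates 2 and 3.

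The stalk proteins P0, P1 and P2 form the flexible arm of the large subunit that recruits translation factors. RpLP0 (3L:22075919-22076196) had a signal of 615.5 and ranks of 398, 403 and 478, RpLP1 had 375.1 (1162, 621 and 1458) and RpLP2 had 212.9 (3775, 5116 and 1182). All 3 stalk genes were bound, with summits 28, 65 and 59 bp upstream of a TSS. RpLP2 was within the strongest peaks of replicates 1 and 3 only.

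The member with the strongest peak belonged to the small subunit. RpS27 (3R:25247365-25247691), whose protein carries a zinc-binding fold, had an optimal signal of 913.1 and ranks of 112, 219 and 235, with the summit 2 bp downstream of a TSS. Below it, RpS4 had 595.0 (740, 237 and 388), RpS25 had 501.3 (674, 792 and 517) and RpS10b had 491.1 (1277, 356 and 555). RpS27A, which encodes a ribosomal protein fused to ubiquitin, had 272.2 and ranks of 1999, 2119 and 1954. Sta had 203.8 with ranks of 1051 in replicate 2 and 9169 in replicate 3 and no peak listed in replicate 1.

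The 5 bound members of lowest signal came from both subunits. RpS12 had 159.2, RpS3 172.7, RpL12 179.0, RpS26 179.9 and RpS14a 183.0, where the lowest signal in the optimal list was 157. RpS12 ranked 9551 in replicate 1 against 2472 and 2273 in replicates 2 and 3, and RpS3 ranked 10910 against 2014 and 2063. Just outside the list, RpL5 had a pooled signal of 156 (rank 3919 of the pooled list) and RpL29 had 155.

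The subunits were bound at nearly the same rate in the optimal list, at 37 of 54 large subunit genes (68.5%, exact interval 54.4 to 80.5) and 26 of 39 small subunit genes (66.7%, exact interval 49.8 to 80.9). The large subunit share was higher in each library, by 14.5, 12.5 and 8.12 percentage points in replicates 1, 2 and 3, a mean of 11.7 ± 3.28 (SD, n = 3). The libraries count the same genes, so this SD leaves out counting error over genes. The exact intervals of the subunits overlapped in each library. The mean shares were 67.3% ± 10.2 and 55.6% ± 12.6 (SD, n = 3 each) for the large and small subunit. Among bound genes, 27 of 37 for the large subunit and 14 of 26 for the small subunit had a strong peak in all 3 libraries. The median optimal signal was 390 (range 179 to 866) at large subunit genes and 273 (range 159 to 913) at small subunit genes. The ranges overlapped almost throughout.

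Members' peaks were of middling to high strength for promoters. Their median signal was 356 (quartiles 232 and 457), against 279 (198 and 461) at other protein-coding genes with a peak. The upper quartiles were close to each other. No member reached the highest signals of the list, which went up to 3098 at other protein-coding genes. The median peak width was 281 bp at members and 436 bp at other protein-coding genes. The upper quartile was 436 bp in both sets, so many peaks share this width. Width also varied with signal when the bound members were divided by signal into 3 groups of 21. The median widths were 229, 191 and 436 bp from the group of highest signal to that of lowest. Width was not compared at matched signal, so the difference cannot be read as a trait of member peaks.

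The summits lay close to the start sites of the ribosomal protein genes. The median summit position was 17 bp upstream of the nearest TSS at the 63 bound members (quartiles −44.5 and 7 bp, where negative is upstream), an offset of −17 bp, against −155 bp at the 1785 other protein-coding genes with an optimal peak. Of the members, 49 of 63 (77.8%) had the summit within 50 bp of a TSS, against 8.4% of the other genes. The libraries gave 65.2%, 70.3% and 73.4% for members, a mean of 69.7% ± 4.15, and 9.88% ± 1.79 for other genes (SD, n = 3 each). The median offsets averaged −14.8 ± 14.9 bp for members and −148 ± 15.9 bp for other genes (SD, n = 3 each), a difference far larger than the spread between libraries. Summits upstream of the TSS made up 65.1% at members and 85.1% at other genes.

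The number of annotated start sites bears on this measure, because a gene with several has more chances of a near one. Bound members had a mean of 1.84 annotated TSSs and unbound members 1.4. Among genes with a single TSS, an analysis added after the data were seen, 19 of 27 members (70.4%) and 46 of 928 other genes (4.96%) had the summit within 50 bp, with median offsets of −34 bp and −164 bp. Members with 1 TSS were bound at 27 of 48 (56.2%) and those with 2 at 23 of 29 (79.3%). The share of all protein-coding genes was not computed by number of TSSs.

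**Figure D3:**
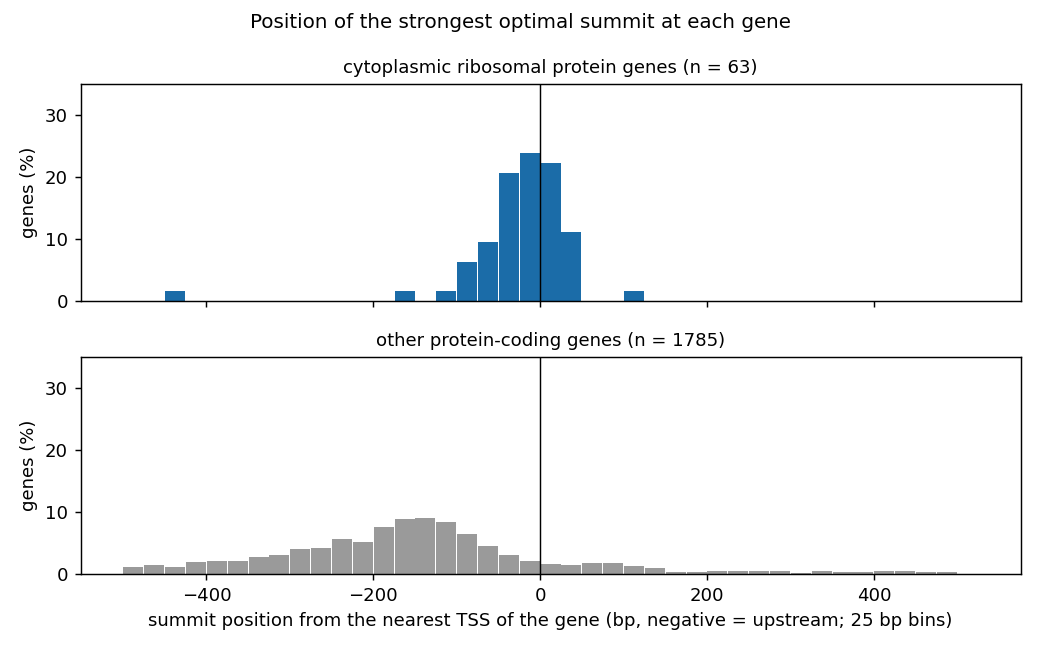
Position of the strongest optimal summit from the nearest TSS (x axis, bp, negative upstream, bins of 25 bp) at the 63 bound ribosomal protein genes (upper panel) and the 1785 other protein-coding genes with an optimal peak (lower panel), as a percentage of genes (y axis). Member summits cluster at the TSS with a median of −17 bp, and those of other genes centre on −155 bp.

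Summit position between libraries was close at many genes but not at every gene. Over the 41 members with a strong peak in all 3 libraries, the median range of the offset was 31 bp, and 28 of the 41 stayed within 50 bp. RpL13A had offsets of −47, −45 and −43 bp in replicates 1, 2 and 3, RpS25 had −50, −45 and −42 bp, RpS5a had −48, −44 and −41 bp, and RpL7 had 42, 35 and 29 bp. RpS27 had −3, 1 and −1 bp. By contrast RpL23 had −358, −14 and −7 bp, and RpS19a had −109, −6 and −4 bp. The summit was upstream in all 3 libraries at 22 of these genes and downstream in all 3 at 2.

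A few members differed in position. RpS23 was the only bound member with its summit beyond 250 bp, at −437 bp, and its offsets were −435 and −437 bp in replicates 1 and 3 but 50 bp in replicate 2. RpL34a had its summit at −156 bp, where the start site of the divergent gene Trmt61 is nearer, at 73 bp, and it was the only one of the 63 whose peak lay nearer to a TSS of another gene. RpL36A had the most downstream summit, at 105 bp. Of the 63 summits, 31 lay outside the member, 29 in its 5′ UTR, 2 in an intron (RpL35 and RpL36A) and 1 in a coding exon (RpS15). At 35 of the 63, a TSS of another gene also lay within 500 bp of the summit, so the peak could be counted for either gene.

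Bound members were divided by optimal signal into 3 groups of 21. This signal equals that of the pooled libraries, so more library support at higher signal is built in and is a description. In the 21 bound members of highest signal (431.4 to 913.1) the median offset was −21 bp and 20 had a strong peak in all 3 libraries. In the middle 21 (266.6 to 421.5) the values were −19 bp and 17, and in the lowest 21 (159.2 to 261.2) they were −1 bp and 4. Replicate 1 had a strong peak at 20, 17 and 7 of these genes, replicate 2 at 21, 21 and 17, and replicate 3 at 21, 21 and 19. The loss in the lowest group was thus mostly in replicate 1.

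The polypyrimidine initiator marked most member promoters, bound and unbound. The TCT initiator was searched as CTTTTC or CTTTTT or CTTTCC or CTTTCT on the strand of the gene, with its C within 10 bp of a TSS. It was present at 55 of 63 bound members (87.3%, exact interval 76.5 to 94.4) and 19 of 30 unbound members (63.3%, exact interval 43.9 to 80.1), against 5.09% of all protein-coding genes. The intervals of bound and unbound members overlapped, which is not a test of a difference. With the most upstream TSS of each gene alone the shares were 50.8% and 46.7%, against 3.39%. Relative to the C of the initiator, a measure added after the data were seen, the summit had a median position of 30 bp upstream, and it lay upstream at 44 of the 55 genes and within 50 bp at 39. Other protein-coding genes with the initiator word had an optimal peak at 140 of 636 (22.0%), against 12.4% of those without it. Their summits were within 50 bp of a TSS at 12.9%, against 8.02% at genes without the word, and at members with and without the word the shares were 80% and 62.5% (n = 55 and 8).

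Other promoter words were counted from 250 bp before to 50 bp after a TSS, on both strands. The DRE (TATCGATA), bound by DREF, was at 17 of 63 bound members (27.0%) and 11 of 30 unbound members (36.7%), against 10.2% of all protein-coding genes. The M1BP site (GGTCACAC) was at 20.6% of bound and 10% of unbound members, against 8.71%. The E-box CACGTG was at 15.9% of bound and 20% of unbound members, against 5.34%. GAGA factor's GAGAG was at 23.8% of bound and 13.3% of unbound members, against 36.4% of all protein-coding genes and 48.3% of other genes with an optimal peak. A TATA box (TATAAA on the gene's strand, 45 to 15 bp before a TSS) was found at 1 of 63 bound members and 0 of 30 unbound members, against 10.6%. For each of these words the intervals of bound and unbound members overlapped, which again is not a test of a difference. A match is a description of the letters and does not show that a factor binds there.

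**Figure D4:**
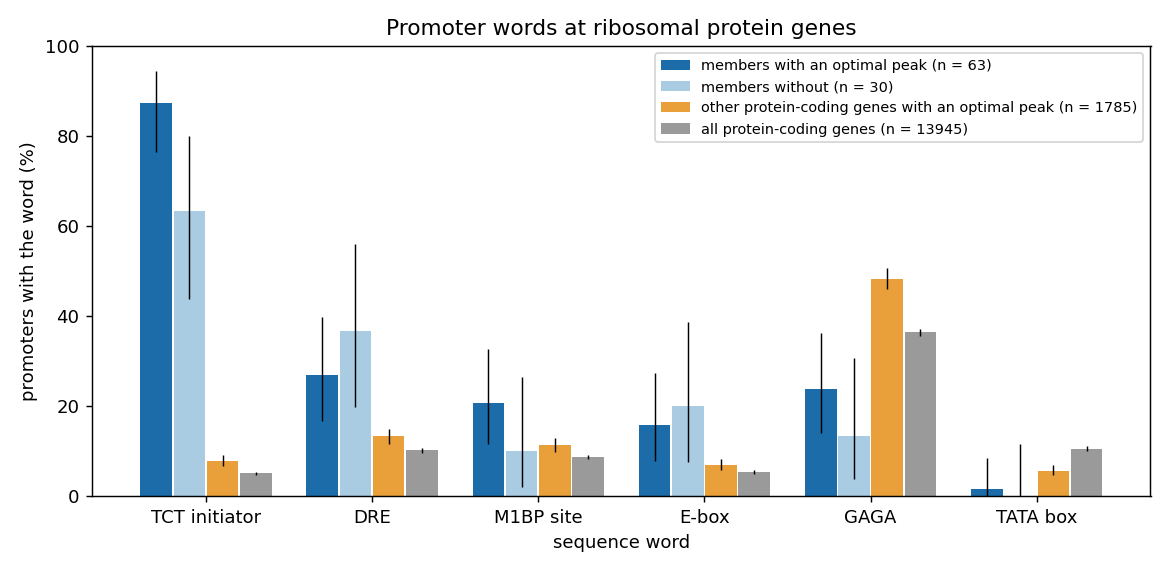
Share of promoters with each word (y axis, percent, with exact 95% intervals) for the TCT initiator, DRE, M1BP site, E-box, GAGA word and TATA box (x axis), in bound members, unbound members, other protein-coding genes with an optimal peak and all protein-coding genes. The TCT initiator stands at 87.3% and 63.3% in bound and unbound members, against 5.09% of all protein-coding genes.

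The sequence under member summits was richer in G and C than under other promoter peaks. The mean G+C within 50 bp of the summit was 46.7% at the 63 member peaks (range 30.7 to 59.4) and 33.3% at the 1564 other promoter peaks. The libraries gave 45.4% ± 0.43 at member peaks and 34.3% ± 1.61 at other promoter peaks (SD, n = 3 each), a gap larger than the spread between libraries. Position moved with this value: among peaks with the summit within 50 bp of a TSS, the mean was 47.3% at 49 member peaks and 40.3% at 144 peaks of other protein-coding genes. In the 100 bp before the TSS, G+C was 45.2% at bound members, 40.8% at unbound members and 41.5% at all protein-coding genes. How far base composition affects the peak lists was not tested.

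A word of 8 bases was found after the data were seen, by ranking words held by at least 10 members against all protein-coding promoters. GTTTCCGG (or its reverse complement CCGGAAAC) was at 17 of 63 bound members (27.0%, exact interval 16.6 to 39.7) and 0 of 30 unbound members (exact upper limit 11.6%), against 0.774% of all protein-coding genes. On the strand of the gene it cannot overlap a TCT word, because TCT words hold no G and only TTTCC lies between its Gs. Words that overlap it were not absent from unbound members: CGGAAACG was at 17 bound members and 1 unbound member. Nor was the pattern particular to this word: CCAACTTC was at 10 bound and 0 unbound members, and GCGGTCAC at 11 and 0. Its ranking did not use binding, but the word was picked for its frequency in the members, so that share carries no test. The intervals take no account of this choice, and the split between bound and unbound members was not tested. At all 17 genes it read GTTTCCGG on the strand of the gene, with its first base between 31 bp upstream and 29 bp downstream of the nearest TSS and a median of 19 bp downstream. The 17 genes include RpL7, RpL7A, RpL8, RpL9, RpL11, RpL17, RpL18, RpL23, RpL27, RpL31, RpL32, RpL35, RpL35A, RpL37A, RpS10b and RpS18. The summit lay at a median of −32.5 bp from the centre of the word. Median signal was 354 at bound members with the word and 378 at the 46 without it, so the word did not go with stronger peaks. Of 91 other protein-coding genes with the word, 22 (24.2%) had an optimal peak, against 12.8% of those without.

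Among members grouped by name as paralogs, 1 gene of a group was usually bound and the rest not. Names that differ only by a final letter, number or -like gave 13 groups, 12 of 2 genes and 1 of 3. The grouping rests on names alone. It counts RpL7-like, RpL24-like and RpLP0-like as partners, though their yeast counterparts are assembly factors and not parts of the ribosome. In 10 groups 1 gene was bound, in 1 group (RpL34a and RpL34b) both were, and in 2 groups (RpL10Aa with RpL10Ab, RpL37-1 with RpL37-2) none was. Genes in these groups were bound at 12 of 27 (44.4%), against 51 of 66 (77.3%) for members with no such partner. The promoters of RpS19a (plus strand, X:16637814-16637914) and RpS19b (minus strand, 3R:23933510-23933610), and of RpS10b (plus strand, X:19597960-19598060) and RpS10a (plus strand, 3R:27652680-27652780), are shown because the bound copy of each pair has the initiator word, in capitals, and the other has not.
RpS19a: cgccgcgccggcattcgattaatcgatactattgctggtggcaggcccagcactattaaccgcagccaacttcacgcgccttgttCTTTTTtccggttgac
RpS19b: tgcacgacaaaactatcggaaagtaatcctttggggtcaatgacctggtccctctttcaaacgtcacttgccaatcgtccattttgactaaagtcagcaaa
RpS10b: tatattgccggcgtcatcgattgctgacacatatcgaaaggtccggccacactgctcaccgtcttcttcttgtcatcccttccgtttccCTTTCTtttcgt
RpS10a: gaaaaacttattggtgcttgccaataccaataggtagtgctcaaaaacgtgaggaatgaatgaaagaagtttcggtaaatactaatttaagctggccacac

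RpS19a had an optimal signal of 456.3 and ranks of 1689, 395 and 708 in replicates 1, 2 and 3, and RpS19b was listed in replicate 2 alone, at rank 20067, with its nearest optimal summit 888 bp away. RpS10b, described above, had ranks between 356 and 1277, while RpS10a had no peak in any list. RpS28b had a signal of 434.9 (ranks 589, 591 and 1286), and of its partners RpS28-like ranked 22007 and 13067 in replicates 1 and 2 and RpS28a was not listed. RpL22 had 421.5 (1018, 533 and 1104), and RpL22-like, known for its expression in the testis, was not listed. RpS5a had 313.5 (2081, 1182 and 1227), and RpS5b, known for its expression in the ovary, ranked 5584 and 9990 in replicates 1 and 2. Where the partner of the bound gene was listed at all, in RpS19b, RpS28-like and RpS5b, each of its ranks was behind every rank of the bound gene. Bound and unbound were set from the pooled signal of these same libraries, so this order is largely built in and is a description.

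RpS15Aa had 273.4 (ranks 2773, 1475 and 1325), and RpS15Ab ranked 18715 and 9325 in replicates 2 and 3. RpS14a and RpS14b are neighbours in tandem on the X with the same product, so reads may not separate their bodies, and their values are uncertain. RpS14a had 183.0, and RpS14b had a pooled signal of 103 with ranks of 24172, 6155 and 7697. The initiator word did not divide every pair: RpS5b, RpS14b, RpL22-like and RpL7-like had it and were unbound, while RpL34a lacked it and was bound.

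Of the 5 genes whose names end in -like, 0 were bound, which at the 13.3% of all protein-coding genes is near the background for a list this small. The yeast counterparts of RpLP0-like, RpL24-like and RpL7-like are factors of large subunit assembly and not parts of the ribosome. RpL24 had a signal of 474.8 (ranks 725, 496 and 723), and RpL24-like was not listed. RpLP0-like ranked 11041 and 6417 in replicates 1 and 2, against ranks of 398 and 403 for RpLP0. RpL7-like ranked 3331 and 7353 in replicates 2 and 3, with summits 325 and 321 bp upstream, against ranks of 166 and 201 for RpL7. Without the -like genes, 63 of 88 members were bound (71.6%, exact interval 61.0 to 80.7).

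**Figure D5:**
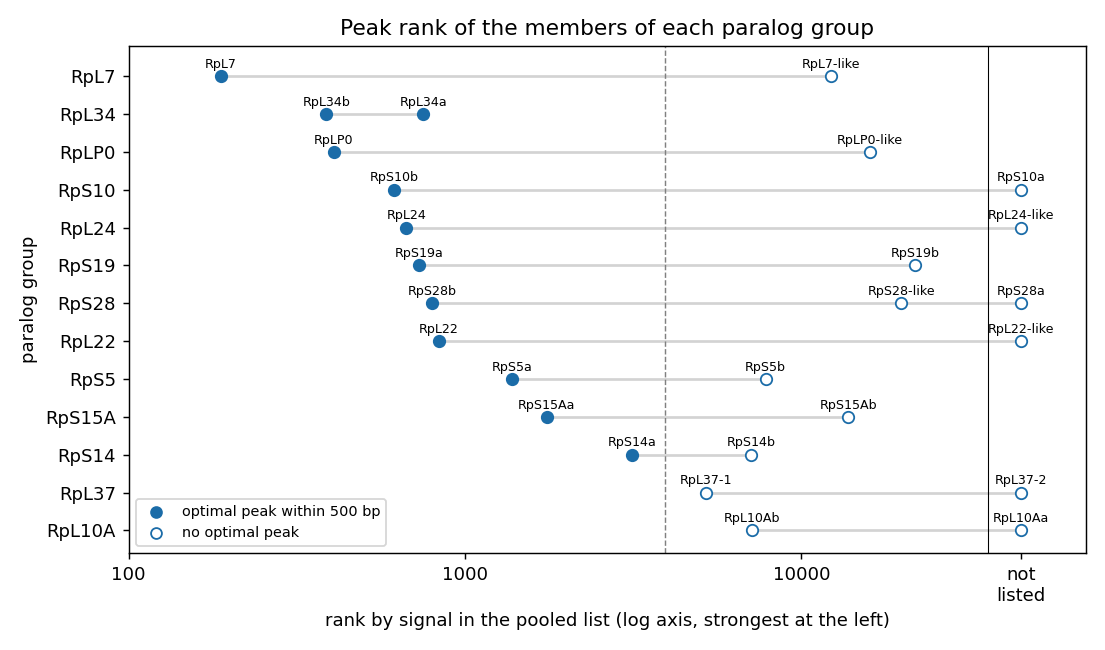
Rank by signal in the pooled list (x axis, log scale, strongest at the left) of each gene in the 13 paralog groups (rows), with filled circles for genes with an optimal peak and open circles for those without. The dashed line is rank 3921, and genes right of the solid line have no pooled peak within 500 bp.

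The signal listed at unbound members varied widely. RpL5, RpL29 and RpL26 had a strong peak in 2 libraries. RpL5, which with RpL11 and 5S RNA forms a particle of its own before assembly, ranked 3918, 7830 and 3677 in replicates 1, 2 and 3. RpL29 ranked 2980 and 3169, and RpL26 ranked 1763 and 3537, in replicates 2 and 3. RpS6, a target of S6 kinase, was strong in replicate 1 (rank 3289), RpL37-1, RpL6 and RpL7-like in replicate 2 (ranks 3592, 2674 and 3331). In the relaxed pooled list, which holds background too, 19 of the 30 had some peak within 500 bp. The share of all protein-coding genes in that list was not computed.

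The other 23 unbound members included RpL10, RpL10Aa, RpL10Ab, RpL15, RpL21, RpL22-like, RpL24-like, RpL37-2, RpL38, RpL40, RpLP0-like, RpS5b, RpS9, RpS10a, RpS13, RpS14b, RpS15Ab, RpS19b, RpS24, RpS28a, RpS28-like and RpS30. Of the 93 members, 6 had no peak within 500 bp in any list: RpL21, RpL22-like, RpL24-like, RpL37-2, RpS10a and RpS28a. RpL40, which encodes the large subunit's protein fused to ubiquitin, was listed in replicate 2 alone at rank 18331, unlike RpS27A, the bound fusion gene of the small subunit. RpL10, which completes the large subunit late in its assembly, ranked 9783, 4024 and 5535. RpS9 ranked 6323 and 5409 in replicates 2 and 3, and RpS30 ranked 28465, 4868 and 7868.

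Several unbound members lie far from any optimal peak, some of them towards the centromeric end of their chromosome arm. The distance to the nearest optimal summit was 4357159 bp for RpL15, 1536462 bp for RpL38, 499529 bp for RpL5, 210712 bp for RpL21 and 185375 bp for RpL10. RpL15, RpL5 and RpL21 lie 0.843, 0.981 and 1.27 Mb from the centromeric end of their chromosome arm, a measure added after the data were seen. The unbound RpL38 (2R) and RpL10 (3L) lie 4.52 and 5.02 Mb from it. On other arms, the bound RpS10b (X), RpL30 (2L) and RpS26 (2L) lie at 3.94, 4.51 and 5.07 Mb. The extent of heterochromatin on each arm was not measured, so these distances are descriptions. RpS3A, on the largely heterochromatic chromosome 4, was bound with a signal of 241.2, strong in replicates 2 and 3 (ranks 1928 and 2305) and not listed in replicate 1. Whether reads map equally well in these regions was not tested. By chromosome, 13 of 19 members were bound on 2L, 13 of 21 on 2R, 9 of 14 on 3L, 15 of 23 on 3R, 1 of 1 on 4 and 12 of 15 on X. The share of all protein-coding genes was not computed by chromosome.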

How the data were processed

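The deposited files are peak lists in dm6 coordinates, with a relaxed list of 30000 rows for every library and for the pool, all called against a shared control alignment, and an optimal list filtered by the irreproducible discovery rate, per the file listings. The signal of each peak (column 7) and its −log10 q-value (column 9) are the authors', as deposited. Signal was used to rank and describe peaks within 1 list, and the q-value, which has a ceiling, was not used. The aligner, the caller, the threshold or the normalisation to the control was not given in the sources used here. Nothing in the labels says how the biological replicates were raised, so spread between them may be partly technical.

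A gene took its strongest peak with a summit within 500 bp of any annotated TSS, and the offset was counted along the gene from the nearest TSS. TSSs came from Ensembl release 115 and bases from the RefSeq genome sequence of the same assembly. Intervals are exact (Clopper-Pearson, 95%). With 1 group and no control libraries, no test was run, and members are shown beside all protein-coding genes. Scripts used Python 3.11.15, pandas 2.3.3, numpy 2.4.6, scipy 1.17.1 and matplotlib 3.10.9, and were tested on simulated data. The members, lists, words and paralog groups were chosen with earlier results of these data known. Named genes are all unbound members, all in paralog groups, the 15 bound members of highest and the 5 of lowest signal, and those extreme in position, and others were named after their values were seen. Some members that this rule names are not reported here, though they count in every total. Of 45 biogenesis names, 42 matched the annotation. Alternatives covered the TSS window, the list length, the overlap, TSS choice and leaving out each library.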

Additional observations from a re-analysis of the deposited data

How the results depend on the processing

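The count of bound members stayed between 61 and 64 with windows of 250 and 1000 bp, the most upstream TSS alone, or the peak interval over the TSS, and was 44 in the stronger 1952 peaks and 82 in the pooled relaxed list. Of the recomputed values 42 stayed close to the reported ones and 17 moved. The mean share per library was 45.9% with 1/2 the list length, 74.2% with 2 times and 83.2% with whole relaxed lists, and 59.1% to 68.8% when 1 library was left out. Shares of all protein-coding genes were not computed for the relaxed lists, the other lengths of the library lists or the overlap. Members strong in all libraries numbered 62 with whole relaxed lists, 21 where each library's peak had to overlap the optimal peak by 50%, and 41 to 59 without 1 library, the highest without replicate 1. The subunit difference in the optimal list was 5.58 points without -like genes, 10.8 in the stronger peaks and −0.712 at 1000 bp, so its sign depends on the window. Median signal was 418 in the stronger peaks. The median offset was 0 bp from the most upstream TSS, a choice made after seeing the data, and −19.5 to −6.25 bp as the mean of the libraries left when 1 was dropped. The initiator share was 60.2% with its C within 5 bp and 49.5% with the most upstream TSS. G+C at member summits was 48.2% within 25 bp and 43.2% within 100 bp, against 32.8% and 35.1% at other promoter peaks, 45.4% as the mean of the libraries, and 45.3% to 45.7% without 1 library. The cause of these shifts was not tested beyond what each setting changes. No paired analysis was possible because the libraries form 1 group. Median signal was not compared between library lists, whose scales differ.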

Other observations

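Genomic context is given as values with no test. Members with 1 or more snoRNA genes inside them were bound at 23 of 29 (79.3%), against 40 of 64 (62.5%) of those without. Other protein-coding genes with a snoRNA gene inside were bound at 16 of 55 (29.1%), against 12.8% of those without. RpS5a, with 14 snoRNA genes, and RpS7, with 7, were both bound. Members with a divergent protein-coding neighbour within 1000 bp were bound at 43 of 56 (76.8%), against 20 of 37 (54.1%) of those without one. Other protein-coding genes with such a neighbour were bound at 21.1%, against 8.47% of those without one, so the direction was the same outside the members. These features overlap with each other, with the number of annotated TSSs and with the initiator word, and their separate parts were not tested.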
